A study of Mus musculus with 8 samples.

Results

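A set of 117 genes was strongly repressed in mouse peritoneal macrophages after 4 h of lipopolysaccharide (LPS), out of 18193 genes with a named probe set (0.643%). A gene entered the set when its 4 h value was at least 2.5 log2 units below its 0 h value in both genotypes, and when its 4 h value lay no more than 0.5 above its 2 h value in both. Each gene was read from 1 probe set with a single gene symbol, the one of highest mean over the 8 arrays. The genes were thus chosen by their measured 0, 2 and 4 h values, and the depth of the fall and the timing up to 2 h are given as descriptions with no test. Symbols made of Zfp and 3 digits were to be left out, and 0 such genes met the other criteria. Of the 117 genes, 115 are protein coding and 2, E330020D12Rik and Gm5547, are long noncoding RNAs in the RefSeq table. They lie on 20 chromosomes.

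The macrophages had been drawn into the peritoneal cavity by an injection of thioglycollate, a sterile irritant, and came from Zc3h12a-/- mice, labelled Zc3h12a KO, and from wild-type mice. The cells of each genotype were left unstimulated (0 h) or given LPS at 100 ng/ml for 1, 2 or 4 h. The gene's product, Regnase-1, is an endoribonuclease that cuts messenger RNAs of inflammatory genes. Each genotype and time has 1 Affymetrix array with no replicate, and the labels give neither the number of animals behind a sample, their age and strain background, nor how the allele was made.

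LPS is a component of the outer membrane of Gram-negative bacteria and is sensed through TLR4. It is best known for switching on inflammatory genes, but the same signal lowers the messenger RNAs of many genes of the resting cell, among them inhibitors of growth signalling, metabolic enzymes, lysosomal proteins and receptors. How fast such a transcript can disappear depends on how far its transcription stops and on its half-life. Levels were log2 values after RMA, so 1 log2 unit is a change by a factor of 2 on the intensity scale. Levels of different genes were not compared, because probe sets differ in how they respond to their RNA. In such bulk RNA, fewer cells of a type and less RNA per cell cannot be told apart.

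The cells carried their label. All 16 of 16 macrophage markers, such as Adgre1, Csf1r and Itgam, read above array background on every array, with a summed log2 level of 164.0 to 167.2 in labelled knockout cells and 165.8 to 169.3 in wild-type cells, and none of them is among the 117 genes. Of these, Cx3cr1 was close to background (2.96 to 3.26), at 3.18 to 3.36 in labelled knockout cells and 3.25 to 3.63 in wild-type cells. Markers above background on all arrays numbered 2 of 8 for B cells, 1 of 8 for T and NK cells, 2 of 10 for neutrophils and eosinophils, 4 of 9 for mast cells and 7 of 14 for mesothelial and stromal cells. The main probe set of the targeted gene, Zc3h12a, read 6.73, 7.70, 8.75 and 8.50 at 0, 1, 2 and 4 h in labelled knockout cells and 6.12, 8.02, 8.87 and 8.57 in wild-type cells, so it does not separate the genotypes. No label says whether it lies inside the deleted part, so this probe set does not check the label. Correlations between arrays ran between 0.933 and 0.988 over all probe sets, not over the tested genes alone. The array medians were 3.14 to 3.21, so many of these probe sets read near background. For Actb, control probes near the 3' end read higher than those near the 5' end, a gap that grows when RNA or cRNA is short, by 3.11, 2.61, 2.52 and 2.30 log2 units at 0, 1, 2 and 4 h in labelled knockout cells and 2.64, 2.35, 2.43 and 2.16 in wild-type cells. For Gapdh the gap was 3.31, 2.95, 3.04 and 2.90 in labelled knockout cells and 3.01, 2.99, 3.16 and 2.98 in wild-type cells. The Actb gap thus moved with time and with genotype, the Gapdh gap was larger in labelled knockout cells at 0 h alone, and their part in the values below was not tested.

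**Figure D1:**
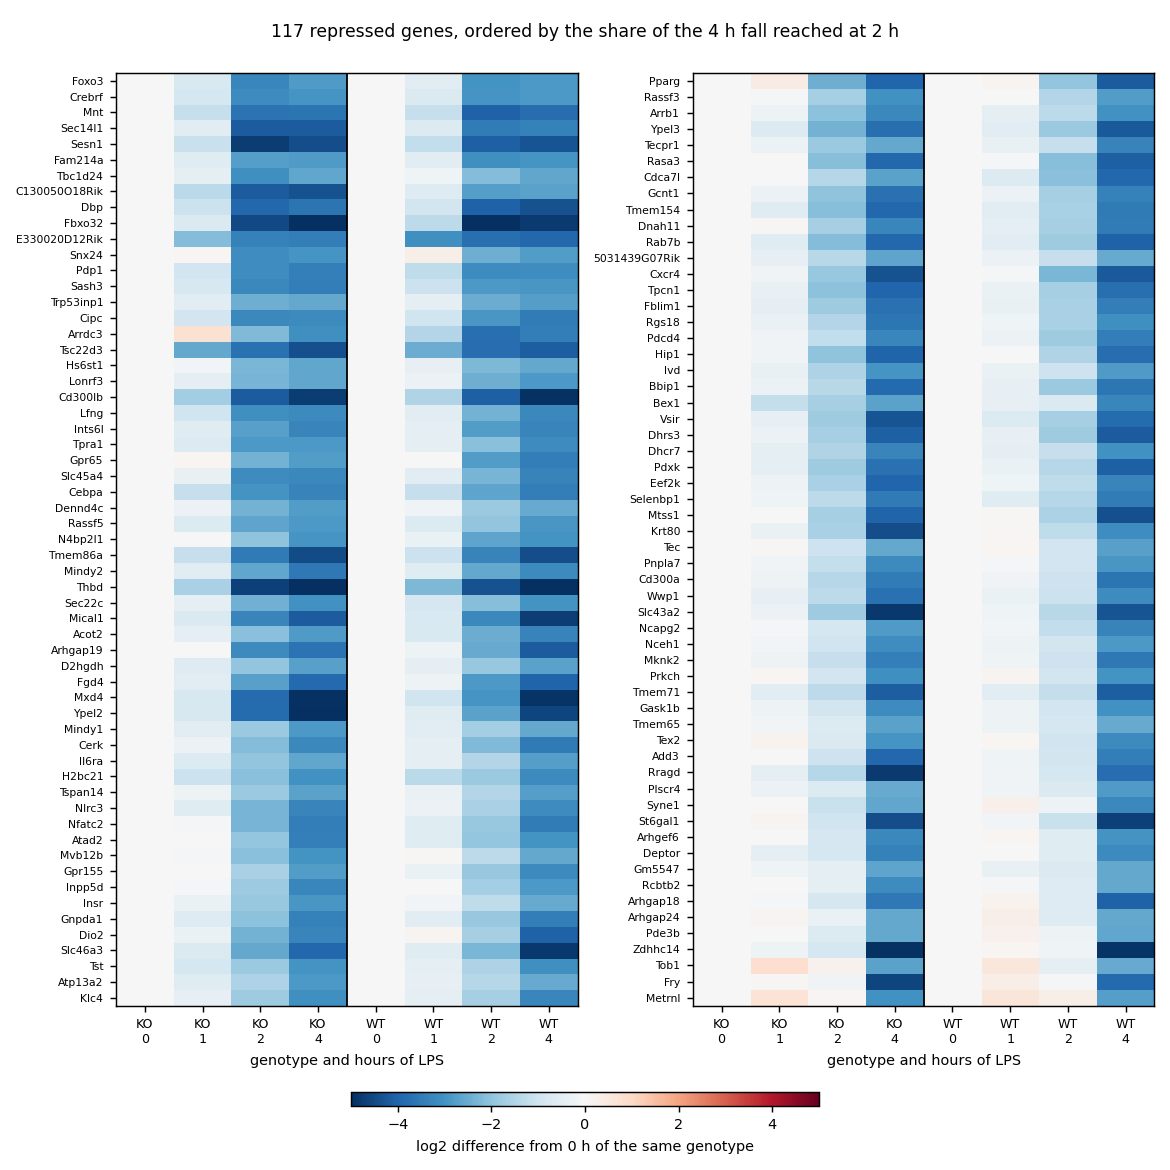
Log2 difference from the 0 h array of the same genotype for all 117 genes, with the labelled knockout (KO) arrays left of the wild-type (WT) arrays and the hours of LPS in order. Genes run down from those that had reached most of their 4 h fall at 2 h (Foxo3, Crebrf, Mnt) to those that had barely moved by then (Tob1, Fry, Metrnl), and blue marks lower values. Values beyond the colour scale take its end colour.

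At 4 h the mean difference from 0 h over both genotypes ran between -2.56 for Arhgap24 and -5.96 for Thbd, with a median of -3.29 log2 units over the 117 genes, against a median of -0.12 over the 12540 genes that passed a filter on low values. All 117 genes passed that filter. On the linear scale the falls were by factors of 5.91 to 62.1. Values at 0 h ran from 5.53 to 12.14 and values at 4 h from 2.69 to 8.47. The rule asked for a deep fall in both genotypes, so genes that fell deeply in 1 genotype alone are not in the set. A like depth in both is therefore partly built in. Among the 117 genes, the difference between the falls of the genotypes had a median of 0.25 log2 units. It stayed under 0.5 for 95 genes and reached 1 or more for 3. These 3 were Krt80, a keratin (-4.44 in labelled knockout cells and -3.09 in wild-type cells), C130050O18Rik (-4.36 in labelled knockout cells and -2.67 in wild-type cells) and Cdca7l, a MYC-interacting nuclear protein (-2.66 in labelled knockout cells and -3.91 in wild-type cells).

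Some falls ended at the floor of the assay. At 4 h, C130050O18Rik, Nlrc3 and Fam214a read at or below the array background (2.96 to 3.26) in both genotypes, and 8 more genes did so on the labelled knockout array alone: Mxd4, Fbxo32, Pparg, Dbp, Arhgap19, Rgs18, Arrb1 and N4bp2l1. For these 11 the reading is only a bound. Set against the background of the same array, the labelled knockout differences became -4.60 for Fbxo32, -3.26 for Dbp, -2.49 for N4bp2l1 and -2.36 for Fam214a, so the last pair would miss the limit of -2.5 if measured to background. At 2 h, Fam214a was at or below background in both genotypes, Dbp in labelled knockout cells and Fbxo32 and C130050O18Rik in wild-type cells, so the shares of these 4 genes at 2 h are limited too.

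Genes on either side of the limit differed little. Just inside it lay Plscr4, a phospholipid scramblase, at -2.5022 in labelled knockout cells and -2.84 in wild-type cells, and Dennd4c, an exchange factor for RAB10, at -2.79 in labelled knockout cells and -2.51 in wild-type cells. Just outside lay Arhgap39, at -2.4959 in labelled knockout cells and -3.35 in wild-type cells, and Hagh, the glyoxalase that hydrolyses lactoylglutathione, at -3.09 in labelled knockout cells and -2.4935 in wild-type cells. A further 6 genes with falls as deep were left out because they were more than 0.5 above their 2 h value at 4 h in at least 1 genotype: Gpr146, Jun, Lpar6, Lyl1, Natd1 and Rnf144b. Jun, the AP-1 subunit, read 10.07, 10.04, 5.39 and 7.35 in labelled knockout cells and 10.05, 10.31, 6.40 and 7.21 in wild-type cells, a dip with partial return.

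The timing was described by the share of the 4 h fall, in log2 units, that had been reached at 1 h and at 2 h, with 50% as the dividing value. Early genes had reached it at 1 h in both genotypes, middle genes at 2 h in both, late genes at 2 h in neither, and split genes met the middle definition in 1 genotype alone. The counts were 2 early, 57 middle, 38 late and 20 split genes. At 1 h, 9 of the 117 genes (7.69%) were at least 1 log2 unit below 0 h in both genotypes, against 1.36% of all 12540 genes, and 0 were at least 1 above it, against 2.2%. At 2 h it was 92 (78.6%), against 7.7% of all genes, and at 4 h all 117, against 10.02%. The 4 h count follows from the rule, and the 2 h count is not independent of it. The median difference from 0 h was -0.35 at 1 h, -1.77 at 2 h and -3.29 at 4 h.

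The steepest interval, per hour, was 1 to 2 h in both genotypes for 76 genes, 2 to 4 h for 23 and 0 to 1 h for 3, and it differed between genotypes for 15. The median share of the fall was 10.9% at 1 h and 54.7% at 2 h. The 1134 other genes that were lower by 1 or more log2 units at 4 h in both genotypes had median shares of 20.1% and 69.0%. They were not held to the limit on a rise after 2 h, and genes that rise again have larger shares. The 2 sets of shares are therefore not like for like. Steep drops between 1 and 2 h that ended above background were those of Sec14l1, a lipid-transfer domain protein, at -3.63 log2 units per hour in labelled knockout cells and -2.82 in wild-type cells, and of Sesn1, at -3.62 in labelled knockout cells and -2.86 in wild-type cells. In 3 genes, Mnt, Crebrf and Foxo3, the 4 h value was slightly above the 2 h value in both genotypes.

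Promoter sequences are shown for the early pair and for Slc43a2 and St6gal1, so that the ends of the timing range can be read side by side. The latter pair are the late genes of largest fall for which a promoter window was found. For Zdhhc14, the late gene of deepest fall, none was found. Each runs 5' to 3' on the gene's own strand from 250 bases before to 50 bases after the annotated start, in assembly GRCm38.p6 as given by RefSeq. Capitals mark matches to the motifs searched, on either strand: the GC box GGGCGG, the CCAAT box and the YY1 site AAGATGGCG.
Tsc22d3, chrX:140542619-140542918, minus strand: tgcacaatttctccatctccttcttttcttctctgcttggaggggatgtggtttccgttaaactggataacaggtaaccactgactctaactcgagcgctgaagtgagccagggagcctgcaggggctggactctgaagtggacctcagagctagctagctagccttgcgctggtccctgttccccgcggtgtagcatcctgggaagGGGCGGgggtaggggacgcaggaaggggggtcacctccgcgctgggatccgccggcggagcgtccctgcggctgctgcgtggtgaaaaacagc
E330020D12Rik, chr1:153414184-153414483, minus strand: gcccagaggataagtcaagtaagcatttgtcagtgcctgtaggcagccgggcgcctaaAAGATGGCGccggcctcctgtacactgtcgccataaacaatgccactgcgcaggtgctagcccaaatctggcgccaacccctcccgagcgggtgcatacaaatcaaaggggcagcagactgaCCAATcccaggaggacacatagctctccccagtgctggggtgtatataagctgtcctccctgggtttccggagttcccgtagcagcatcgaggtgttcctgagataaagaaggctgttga
Slc43a2, chr11:75531444-75531743, plus strand: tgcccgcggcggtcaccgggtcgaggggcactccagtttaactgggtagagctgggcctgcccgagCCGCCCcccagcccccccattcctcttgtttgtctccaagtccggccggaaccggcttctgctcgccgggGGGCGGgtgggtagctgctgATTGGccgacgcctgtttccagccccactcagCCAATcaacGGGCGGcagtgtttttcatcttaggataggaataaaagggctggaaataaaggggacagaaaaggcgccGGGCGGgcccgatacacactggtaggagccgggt
St6gal1, chr16:23224490-23224789, plus strand: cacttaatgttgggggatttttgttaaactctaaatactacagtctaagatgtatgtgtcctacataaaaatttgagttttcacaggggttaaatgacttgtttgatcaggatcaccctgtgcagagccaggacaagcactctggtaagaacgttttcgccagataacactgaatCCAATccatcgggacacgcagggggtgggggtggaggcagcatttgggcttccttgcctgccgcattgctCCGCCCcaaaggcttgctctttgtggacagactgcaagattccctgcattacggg
The Tsc22d3 window holds 1 GC box, at position -43 from the start. The E330020D12Rik window holds a YY1 site at -192 and a CCAAT box at -70. Slc43a2 has 4 GC boxes and 2 CCAAT boxes, and St6gal1 has 1 of each. Tsc22d3 and St6gal1 have 3 annotated starts and Slc43a2 has 2. The first listed is shown, and which start these macrophages use was not measured.

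The earliest gene was the noncoding RNA E330020D12Rik, with values of 7.67, 5.50, 4.30 and 4.20 on the labelled knockout arrays, against 7.60, 4.52, 3.83 and 3.68 on the wild-type arrays. On average 70.6% of its fall was complete at 1 h. Tsc22d3, which encodes GILZ, a leucine zipper protein induced by glucocorticoids that restrains NF-kB and AP-1, read 7.65, 5.08, 3.91 and 3.24 on the labelled knockout arrays, against 7.74, 5.28, 3.93 and 3.63 on the wild-type arrays. Both genotypes were lower by more than 2 log2 units within the first hour, and 59.0% of the fall had been reached then. The next largest shares at 1 h were 39.1% for the histone H2B gene H2bc21, 34.2% for Pdp1, the phosphatase that activates pyruvate dehydrogenase, and 34.2% for Cebpa, a master transcription factor of myeloid cells. Pdp1 read 9.04, 8.08, 5.93 and 5.61 in labelled knockout cells and 9.37, 8.11, 6.22 and 6.25 in wild-type cells, so it had almost reached its 4 h level at 2 h. Cebpa read 9.67, 8.50, 6.69 and 6.34 in labelled knockout cells and 9.56, 8.41, 6.92 and 6.11 in wild-type cells, and its 1, 2 and 4 h values stepped down in both genotypes. The 9 genes at least 1 log2 unit lower at 1 h in both genotypes were these apart from Pdp1, together with Thbd, Cd300lb, Tmem86a, Sesn1 and Mnt.

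The opposite end of the range held genes that were still near or above their starting level at 2 h. Metrnl, a secreted protein of the meteorin family, read 6.83, 7.53, 6.94 and 3.80 on the labelled knockout arrays, against 7.34, 7.93, 7.64 and 4.60 on the wild-type arrays, and it was above 0 h at 1 and 2 h in both genotypes before the drop to 4 h. Tob1, an antiproliferative adaptor of the CCR4-NOT deadenylase, read 8.39, 9.21, 8.58 and 5.71 on the labelled knockout arrays, against 8.57, 9.13, 8.06 and 6.04 on the wild-type arrays, and its 2 h value was above 0 h in labelled knockout cells and below it in wild-type cells. These were the 2 genes of 117 (1.71%) that stood at least 0.3 above 0 h at 1 h in both genotypes, against 6.36% of all genes. Fry, a large microtubule-binding protein, read 10.69, 10.75, 10.53 and 6.12 on the labelled knockout arrays, against 10.08, 10.42, 10.02 and 6.21 on the wild-type arrays, so 2.68% of its fall had been reached at 2 h. Zdhhc14, a palmitoyltransferase, read 8.30, 8.06, 7.44 and 3.36 on the labelled knockout arrays, against 8.0, 8.09, 7.81 and 3.11 on the wild-type arrays, with 10.8% reached at 2 h and a drop of over 4 log2 units between 2 and 4 h. Pde3b, a phosphodiesterase that hydrolyses cAMP, had reached 18.9% at 2 h.

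**Figure D2:**
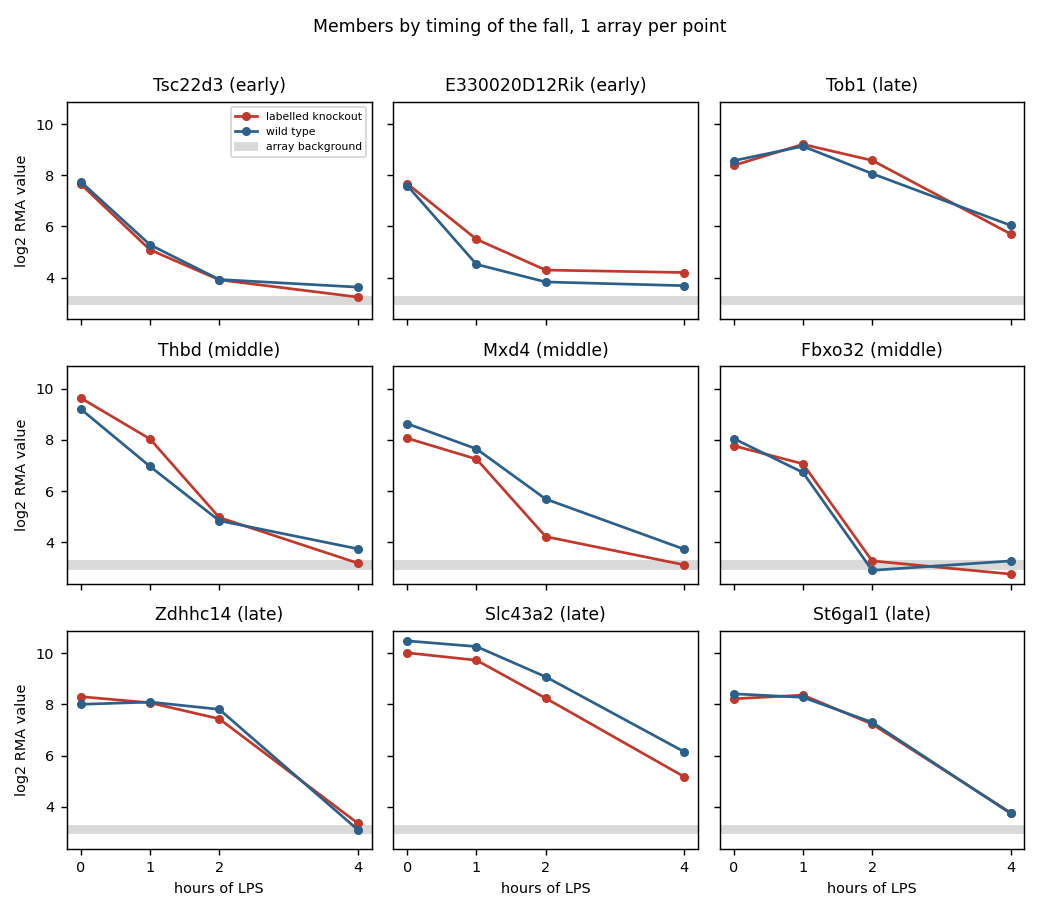
Log2 level at 0, 1, 2 and 4 h of LPS for selected genes of the set, with 1 point per array and 1 line per genotype (labelled knockout and wild type). The grey band is the range of array background. Tsc22d3 and E330020D12Rik drop most within the first hour, Mxd4 and Fbxo32 most steeply between 1 and 2 h, Thbd over the first 2 h, and Zdhhc14, Slc43a2, St6gal1 and Tob1 mainly after 2 h.

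Sorted by known role, transcription and chromatin regulators formed the largest group, with 17 genes, of which 1 was early, 13 middle, 2 late and 1 split. The roles were assigned after the values had been seen. The group had reached a median of 82.9% of its fall at 2 h, against 54.7% for all 117 genes. Several of its members belong to the network of MAX-binding factors and growth inhibitors. Mxd4, a repressor that competes with MYC for MAX, read 8.06, 7.25, 4.22 and 3.11 on the labelled knockout arrays, against 8.63, 7.65, 5.69 and 3.73 on the wild-type arrays, a mean difference of -4.93. Mnt, another MAX-binding repressor, read 8.27, 7.14, 4.59 and 4.64 on the labelled knockout arrays, against 8.33, 7.20, 4.29 and 4.54 on the wild-type arrays. Its whole fall was present at 2 h in both genotypes. Foxo3, the forkhead factor active when insulin and growth factor signalling is low, read 11.18, 10.44, 7.94 and 8.35 in labelled knockout cells and 11.24, 10.72, 8.26 and 8.38 in wild-type cells and was lowest at 2 h on both series.

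The group also holds clock-related genes. Dbp, a clock output factor of the PAR bZIP family, read 6.43, 5.35, 2.50 and 2.76 on the labelled knockout arrays, against 7.64, 6.72, 3.60 and 3.27 on the wild-type arrays, and its 2 and 4 h labelled knockout values lay below array background. Cipc, a repressor that binds CLOCK, read 10.18, 9.23, 6.94 and 6.99 in labelled knockout cells and 10.14, 9.16, 7.22 and 6.65 in wild-type cells, with 92.7% of the fall at 2 h. Pparg, the nuclear receptor of lipid-handling macrophages, followed another course, with values of 7.05, 7.46, 4.60 and 3.09 on the labelled knockout arrays, against 8.32, 8.48, 6.35 and 4.17 on the wild-type arrays. It stood above 0 h at 1 h in both genotypes and had reached 54.6% of its fall at 2 h. Nfatc2, the calcineurin-dependent factor NFAT1, read 6.74, 6.70, 4.42 and 3.28 in labelled knockout cells and 6.95, 6.33, 5.06 and 3.45 in wild-type cells.

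From a fixed list of macrophage transcription factors and repressors, 6 of the 80 tested genes belong to the set: Mxd4, Tsc22d3, Pparg, Dbp, Cebpa and Foxo3. In that list 20 genes were at least 1 log2 unit lower at 4 h in both genotypes and 9 were at least 1 higher, where the shares over all genes were 10.02% lower and 6.65% higher. The median of the list was -0.11. In a list of cell cycle, quiescence and DNA repair genes 3 of 58 were members, Sesn1, Trp53inp1 and Tob1, with 11 lower and 6 higher and a median of -0.49. Trp53inp1, a p53-inducible protein that promotes autophagy and cell death, read 9.83, 9.28, 7.38 and 7.27 in labelled knockout cells and 9.99, 9.48, 7.49 and 7.25 in wild-type cells. It was flat between 2 and 4 h in both genotypes.

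**Figure D3:**
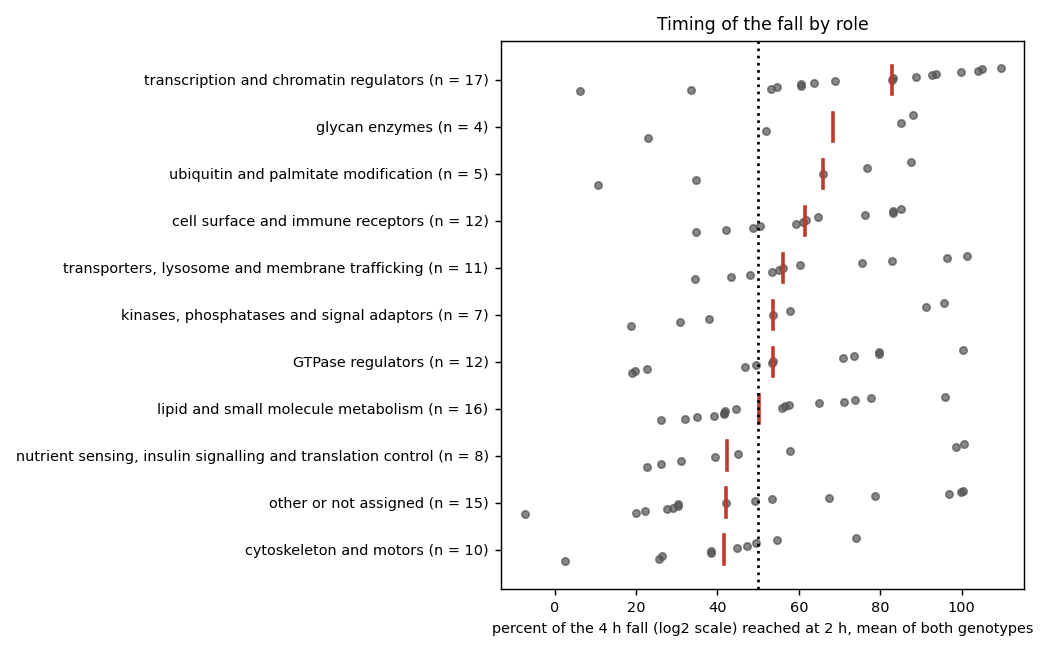
Share of the 4 h fall reached at 2 h (percent, mean of both genotypes), 1 point per gene, by role group. Transcription and chromatin regulators lie highest, with a median of 82.9%, and cytoskeletal genes lowest, at 41.6%, and the groups overlap widely.

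Genes that sense nutrients or insulin or control translation made up 8 of the set. Fbxo32 (atrogin-1), the F-box subunit of a ubiquitin ligase known as a FOXO target in muscle, read 7.77, 7.06, 3.27 and 2.75 on the labelled knockout arrays, against 8.05, 6.72, 2.90 and 3.27 on the wild-type arrays. The wild-type 2 h value and the labelled knockout 4 h value lay below background, so neither the full depth nor the share reached at 2 h could be measured. Sesn1, a sestrin that inhibits mTORC1 when leucine is scarce, read 8.38, 7.26, 3.64 and 3.94 on the labelled knockout arrays, against 8.53, 7.32, 4.45 and 4.20 on the wild-type arrays, and was likewise at its low level by 2 h. Rragd, a Rag GTPase that recruits mTORC1 to lysosomes, read 9.05, 8.60, 7.62 and 4.25 on the labelled knockout arrays, against 8.84, 8.65, 7.98 and 5.04 on the wild-type arrays, and most of its drop came after 2 h. Deptor, an inhibitor of mTOR, read 8.10, 7.63, 7.21 and 4.71 in labelled knockout cells and 8.04, 8.05, 7.44 and 4.87 in wild-type cells, also a late fall. Inhibitors and activators of growth signalling thus both occur in this group.

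Among the translation regulators, Eef2k, the kinase that inactivates elongation factor 2, differed by -3.63, Mknk2, the kinase that phosphorylates eIF4E, by -3.50, and Pdcd4, an inhibitor of eIF4A, by -3.36. Insr, the insulin receptor, differed by -2.70. Their shares at 2 h ran from 31.0% for Mknk2 to 57.8% for Insr. In a fixed list of ubiquitin ligases and F-box proteins, Fbxo32 was the 1 member among 58 tested, with 13 lower and 7 higher by at least 1 log2 unit and a median of -0.52. The ubiquitin and palmitate group held 5 genes: Zdhhc14, the HECT ligase Wwp1, the RING protein Lonrf3, and Mindy1 and Mindy2, deubiquitinases that trim K48-linked chains, with falls of -2.70 (Mindy1) to -4.92 (Zdhhc14).

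Of 12 surface and immune receptors, Thbd had the deepest fall of the whole set. Thbd encodes thrombomodulin, which binds thrombin and turns it toward activating protein C, and it read 9.64, 8.03, 4.97 and 3.18 on the labelled knockout arrays, against 9.20, 6.96, 4.84 and 3.74 on the wild-type arrays. The mean difference was -5.96, a factor of 62.1, and each later array was lower than the one before in both genotypes. Cd300lb, an activating receptor of the CD300 family, read 9.67, 7.93, 5.51 and 4.94 on the labelled knockout arrays, against 10.16, 8.66, 6.09 and 5.21 on the wild-type arrays, with 85.2% of the fall at 2 h. Its inhibitory relative Cd300a was slower, at 8.65, 8.40, 7.23 and 5.15 in labelled knockout cells and 9.23, 9.04, 8.17 and 5.59 in wild-type cells, with 34.8% at 2 h. Cxcr4, the receptor for CXCL12 that retains leukocytes in bone marrow, read 12.14, 11.98, 10.26 and 7.78 on the labelled knockout arrays, against 11.90, 11.82, 9.62 and 7.68 on the wild-type arrays, so its 4 h value was lower by a factor of 19.6, and both later intervals contributed more than 1 log2 unit.

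Other receptors of the group were Vsir (VISTA, an inhibitory ligand and receptor of T cells), at -4.08, Il6ra, the binding subunit of the IL-6 receptor, at -2.66, and Nlrc3, an inhibitory member of the NLR family, at -3.21 with both 4 h values at background. Gpr65, a proton-sensing receptor, read 6.75, 6.84, 4.38 and 3.95 in labelled knockout cells and 7.23, 7.23, 4.42 and 3.79 in wild-type cells and did not begin to drop until after 1 h. Gpr155, a cholesterol-sensing lysosomal protein, read 6.76, 6.78, 5.12 and 3.97 in labelled knockout cells and 7.74, 7.40, 5.83 and 4.55 in wild-type cells.

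In the fixed list of G protein-coupled receptors 3 of 48 tested genes were members (Cxcr4, Gpr65 and Gpr155), with 11 lower and 8 higher by at least 1 log2 unit and a median of -0.19. Scavenger, lectin and Fc receptors had 1 member in 46 (Cd300a), with 10 lower and 10 higher and a median of -0.06. The innate signalling list had 1 member in 35 (Nlrc3), with 4 lower and 9 higher and a median of 0.36. Coagulation genes had 1 member in 20 (Thbd), with 4 lower and 5 higher and a median of -0.08.

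Regulators of small GTPases numbered 12. Rasa3, which switches off RAS and RAP1, read 8.49, 8.48, 6.37 and 4.57 on the labelled knockout arrays, against 8.59, 8.49, 6.45 and 4.51 on the wild-type arrays, level at 1 h and then lower by about equal steps. Fgd4, an exchange factor for CDC42, read 10.18, 9.61, 7.45 and 6.29 in labelled knockout cells and 9.86, 9.61, 7.0 and 5.85 in wild-type cells, with 70.8% of the fall at 2 h. Arhgap18, a GTPase-activating protein, read 7.95, 7.86, 7.09 and 4.37 on the labelled knockout arrays, against 8.47, 8.66, 7.84 and 4.44 on the wild-type arrays, where the largest drop came between 2 and 4 h.

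The other members of this group in the fixed list were Arhgap19 (-3.92), Rgs18, a regulator of G protein signalling (-3.33), Arhgef6, an exchange factor for RAC and CDC42 (-3.11), and Arhgap24, a GTPase-activating protein for RAC (-2.56). Arhgap24 was above 0 h at 1 h in both genotypes and had reached 19.0% of its fall at 2 h. With 6 members among 64 tested genes, the fixed list of small GTPase and G protein regulators had 23 genes lower and 5 higher by at least 1 log2 unit and a median of -0.74, the lowest of the 11 lists that hold a member.

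In the metabolic group of 16 genes the largest fall was that of Tmem86a, a lysoplasmalogenase that cleaves the vinyl ether bond of lysoplasmalogens, with values of 8.49, 7.32, 4.95 and 4.03 on the labelled knockout arrays, against 8.58, 7.50, 5.23 and 4.16 on the wild-type arrays. Dhrs3, which reduces retinal to retinol, read 11.64, 11.36, 9.98 and 7.56 on the labelled knockout arrays, against 12.06, 11.63, 10.27 and 7.89 on the wild-type arrays, with 41.9% of the fall at 2 h. Dio2, the deiodinase that makes active thyroid hormone, differed by -3.67, Pdxk, the kinase that makes pyridoxal phosphate, by -3.90, and Cerk, the ceramide kinase, by -3.37. Cholesterol genes were represented by Dhcr7, which catalyses the last step of synthesis (-3.18), and Nceh1, a hydrolase of cholesteryl esters (-2.99).

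The mitochondrial thioesterase Acot2 (-3.08) and the lysophospholipase Pnpla7 (-3.05) completed the members of the fixed lipid list, in which 4 of 62 tested genes belonged to the set, 20 were lower and 5 higher by at least 1 log2 unit, and the median was -0.60. Acot2 had reached 73.7% of its fall at 2 h and Pnpla7 35.0%.

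Transporters and lysosomal or trafficking proteins made up 11 genes. Slc43a2 (LAT4), a transporter of branched and aromatic amino acids, read 10.02, 9.73, 8.24 and 5.17 on the labelled knockout arrays, against 10.48, 10.26, 9.08 and 6.15 on the wild-type arrays, and more than 1 log2 unit was lost in each of the later intervals. Slc46a3, a lysosomal transporter, read 7.23, 6.51, 4.69 and 3.32 on the labelled knockout arrays, against 8.26, 7.66, 5.98 and 3.44 on the wild-type arrays. Others were Tpcn1, an ion channel of endolysosomes (-3.86), Atp13a2, a lysosomal polyamine exporter (-2.70), and Tecpr1, which tethers autophagosomes to lysosomes (-2.95). The list of SLC transporters and ion channels had 2 members in 56 (Slc43a2 and Slc46a3), with 17 lower and 8 higher and a median of -0.55.

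The kinase, phosphatase and adaptor group of 7 included Inpp5d (SHIP1), the inositol phosphatase that opposes PI3 kinase in leukocytes, with values of 8.41, 8.36, 6.57 and 5.14 in labelled knockout cells and 8.38, 8.38, 6.68 and 5.52 in wild-type cells. It was the 1 member in 48 phosphoinositide and phosphatase genes, of which 14 were lower and 4 higher, with a median of -0.38. The TEC family kinase Tec (-2.64), the protein kinase C isoform Prkch (-3.03) and the beta-arrestin gene Arrb1 (-3.12) were also members.

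Cytoskeletal genes, 10 in number, had a median of 41.6% of the fall at 2 h, with 6 late genes. Mical1, an oxidoreductase that takes actin filaments apart, was an exception in timing, with values of 7.75, 7.01, 4.46 and 3.60 on the labelled knockout arrays, against 8.17, 7.40, 4.93 and 3.48 on the wild-type arrays and 74.1% of the fall at 2 h. Mtss1, a membrane-bending protein that binds actin, read 11.62, 11.62, 9.96 and 7.60 in labelled knockout cells and 11.70, 11.74, 10.13 and 7.30 in wild-type cells, and Add3, an adducin that caps actin, read 8.81, 8.79, 7.79 and 4.87 in labelled knockout cells and 8.29, 8.06, 7.35 and 4.84 in wild-type cells. Both were level at 1 h or nearly so and dropped most after 2 h. The 4 glycan enzymes were led by St6gal1, which adds alpha-2,6-linked sialic acid to N-glycans, with values of 8.22, 8.36, 7.23 and 3.77 on the labelled knockout arrays, against 8.42, 8.28, 7.30 and 3.74 on the wild-type arrays, a late drop by a factor of 23.6. Gcnt1, which starts core 2 O-glycan branches, differed by -3.54, Lfng, which modifies Notch receptors, by -3.18, and the heparan sulfate sulfotransferase Hs6st1 by -2.58.

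Among genes of less known function, Ypel2, a yippee-like protein, read 11.91, 11.11, 8.07 and 6.87 on the labelled knockout arrays, against 11.28, 10.68, 8.59 and 6.68 on the wild-type arrays, with 67.3% of its fall at 2 h, and its relative Ypel3 differed by -3.98 at 4 h. The 15 genes left without a role group had a median of 42.2% of the fall at 2 h.

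Probe sets that had not been used to choose the genes were read on the same RNA and are no replicate. Of the 117 genes, 79 have another single-symbol probe set on the array, 147 in all, and 41 of these, in 30 genes, read at least 2 log2 units above background at 0 h. Of the 41, 16 were at -2.5 or less in both genotypes and 38 at -1 or less, with a median of -2.44. This choice by the 0 h arrays favours probe sets that are lower later, so the counts are a description only. Of the other 106, which read nearer to background at 0 h, 8 were at -1 or less in both genotypes and the median was -0.18. Of the 41, the 3 that were not at -1 or less in both genotypes belong to Bbip1 (0.34), Lonrf3 (-0.63) and Hip1 (-1.29, with -0.95 in labelled knockout cells). Those genes thus rest on a probe set that another one does not match. A pair of Zdhhc14 probe sets read 5.74 and 5.24 at 0 h in labelled knockout cells, against 8.14 and 8.17 in wild-type cells, whereas the chosen probe set read 8.30 in labelled knockout cells and 8.0 in wild-type cells.

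The genotypes were compared over the 4 times with limma, with time as a block. The rule did not use this difference, which is a level averaged over all times. It did ask for a deep fall in both genotypes, which bears on the spread that the test uses. The shares of the 117 genes and of all genes below are therefore not like for like. In this test 36 of the 117 genes passed (30.8%, against 13.5% of all 12540 genes), 33 of them lower in labelled knockout cells (28.2%, against 8.72%) and 3 higher (2.56%, against 4.75%). With an additional minimum of 1 log2 unit, 7 genes passed (5.98%, against 2.66%). The median difference of the 117 genes was -0.19 and that of all tested genes -0.04. The share over all genes depends on how many genes of low value are tested. With the filter raised to the 75th percentile of the table, 39 of the 117 genes were lower, against 16.3% of the 7435 genes then tested. In that setting 5 were higher, against 7.84%. After cyclic loess scaling, 27 of the genes were lower and 7 higher, and over all tested genes the shares were 6.44% lower and 5.61% higher. The count of lower genes was 9 without the 0 h arrays (2.74% of all genes were lower then), 21 without those of 1 h (6.61%) and 17 without those of 2 h (3.32%), and 6 genes were higher without those of 4 h (3.09%). Without time as a block limma called 0 of the 117 genes, with 1 at an unadjusted p under 0.05, as the time course then counts as error.

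Bex1, a small adaptor of the brain-expressed X-linked family, showed the largest difference. It read 6.05, 4.87, 4.39 and 3.36 on the labelled knockout arrays, against 8.05, 7.65, 7.31 and 4.80 on the wild-type arrays, lower in labelled knockout cells at all 4 times, with a mean difference of -2.29 (SE 0.251, limma, adjusted p = 0.00389). Pparg differed by -1.28 (SE 0.135, adjusted p = 0.00344), with labelled knockout minus wild-type differences of -1.27, -1.01, -1.75 and -1.08 at 0, 1, 2 and 4 h. Tecpr1 (labelled knockout 6.92, 6.62, 5.07 and 4.37, wild type 8.20, 7.82, 7.05 and 4.85) differed by -1.23 (SE 0.224, adjusted p = 0.0195). All 3 genes were already lower in labelled knockout cells before LPS.

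Dio2 read 7.04, 6.70, 4.69 and 3.76 in labelled knockout cells and 8.08, 8.23, 6.41 and 4.03 in wild-type cells and differed by -1.14 (SE 0.235, limma, adjusted p = 0.028). Dbp differed by -1.05 (SE 0.148, adjusted p = 0.00893) and H2bc21 by -1.02 (SE 0.106, adjusted p = 0.00313). H2bc21 read 6.70, 5.64, 4.62 and 3.67 in labelled knockout cells and 7.78, 6.41, 5.92 and 4.60 in wild-type cells, separated at each time. Both Dbp and H2bc21 were read from probe sets that can bind several transcripts. With such probe sets left out Dbp and H2bc21 differed by -0.22 and -0.28 and did not pass. The probe sets then used read low already at 0 h. Dbp read 3.06 in labelled knockout cells and 3.73 in wild-type cells, and H2bc21 4.49 and 5.22. Such low readings can show little of a genotype difference, so this alternative does not decide about these genes. Bex1 and Pparg were also read from probe sets that can bind several transcripts and have no value with these left out. Dio2, Dbp and Tecpr1 also missed the threshold without the 0 h arrays, and Dio2 without those of 1 h or 2 h as well.

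Only 3 genes were higher in labelled knockout cells. Pde3b read 9.23, 9.19, 8.53 and 6.67 on the labelled knockout arrays, against 7.99, 8.22, 7.72 and 5.40 on the wild-type arrays, higher at all 4 times by a mean of 1.07 (SE 0.104, limma, adjusted p = 0.00252). Insr read 6.92, 6.60, 5.02 and 4.02 in labelled knockout cells and 6.03, 5.88, 4.78 and 3.52 in wild-type cells, a difference of 0.59 (SE 0.120, adjusted p = 0.0275). Ints6l, a paralogue of an Integrator subunit, read 7.62, 7.0, 4.92 and 4.33 in labelled knockout cells and 7.06, 6.57, 4.29 and 3.76 in wild-type cells, a difference of 0.55 (SE 0.0768, adjusted p = 0.00876). With each gene read as the average of its probe sets, Insr and Ints6l differed by 0.18 and 0.33 and did not pass, and Insr also missed the threshold without the arrays of 0, 1 or 4 h.

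Some markers of other cells differed between the genotypes as well. The B cell marker Ighm, the heavy chain of IgM, read 8.92, 9.45, 8.72 and 9.43 at 0, 1, 2 and 4 h in labelled knockout cells and 5.29, 5.46, 5.58 and 5.46 in wild-type cells. The summed log2 level of the 8 measured B cell markers was 30.6 to 31.3 in labelled knockout cells and 27.3 to 28.8 in wild-type cells. This gap came mainly from Ighm and is not a shift of the B cell markers as a group. At 0 h, Cd79a read 3.33 in labelled knockout cells and 4.02 in wild-type cells, and Cd79b 3.14 and 3.81, the other way. Pax5, Cr2 and Fcer2a were at or below background on all 8 arrays. For mesothelial and stromal markers the summed log2 level of the 14 genes was 57.9 to 62.6 in labelled knockout cells and 70.4 to 73.9 in wild-type cells. The 7 above background on all arrays were Col1a1, Col1a2, Col3a1, Sparc, Bgn, Dcn and Pdgfra, while the mesothelial markers Msln, Krt18 and Krt19 were at or below background on all arrays. None of these markers is in the set, and their part in the genotype differences was not tested.

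**Figure D4:**
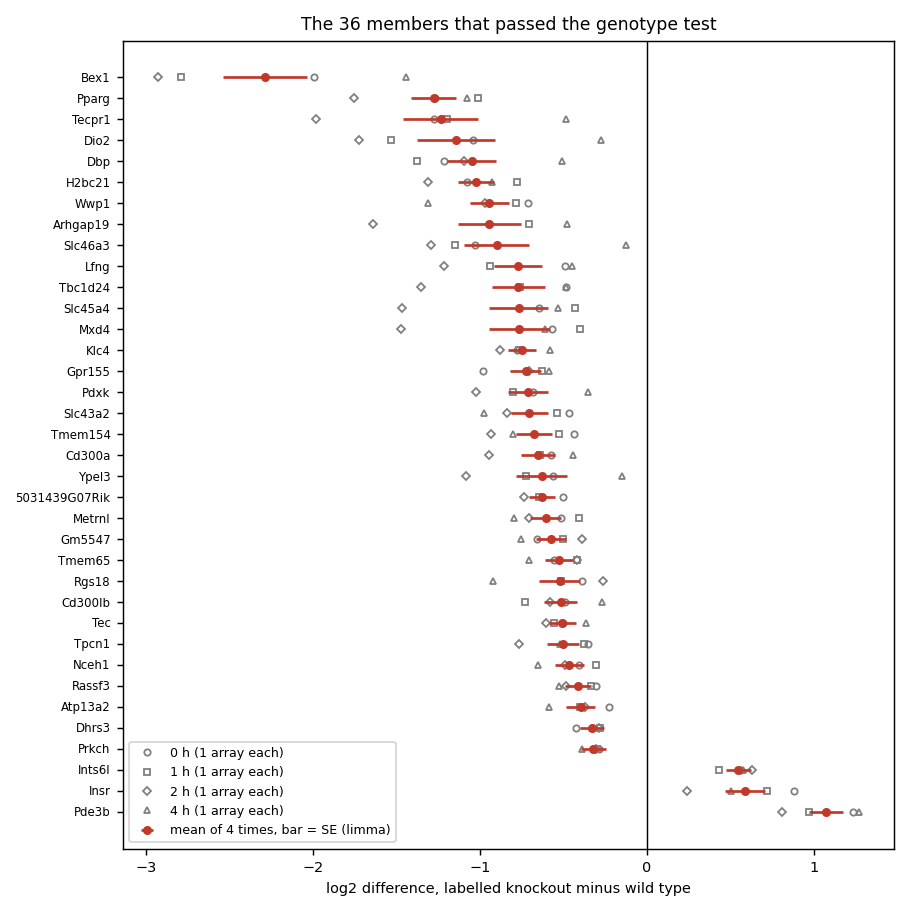
Labelled knockout minus wild-type log2 level for the 36 genes that passed the limma test, with the mean over the 4 times and the difference on each pair of arrays. Of them, 33 lie below 0 (lower in labelled knockout cells) and Pde3b, Insr and Ints6l above it.

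The speed of the fall was also set side by side between genotypes, without a test, as each time has 1 array per genotype and all times share the 0 h arrays. The difference from 0 h was larger (more negative) in labelled knockout cells for 67 of 117 genes at 1 h (57.3%, against 45.2% of all genes), 80 at 2 h (68.4%, against 52.8%) and 60 at 4 h (51.3%, against 50.1%). The median share of the fall reached at 2 h was 60.7% in labelled knockout cells and 51.6% in wild-type cells. At 2 h, Ypel2 was at -3.84 in labelled knockout cells and -2.69 in wild-type cells and Mxd4 at -3.85 in labelled knockout cells and -2.95 in wild-type cells. Arrdc3, an arrestin-domain protein that directs receptors to ubiquitin ligases, went the other way, at -2.21 in labelled knockout cells and -3.77 in wild-type cells. The genes of smaller fall had a like share, 64.7% of 1134 with the larger difference at 2 h in labelled knockout cells.

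**Figure D5:**
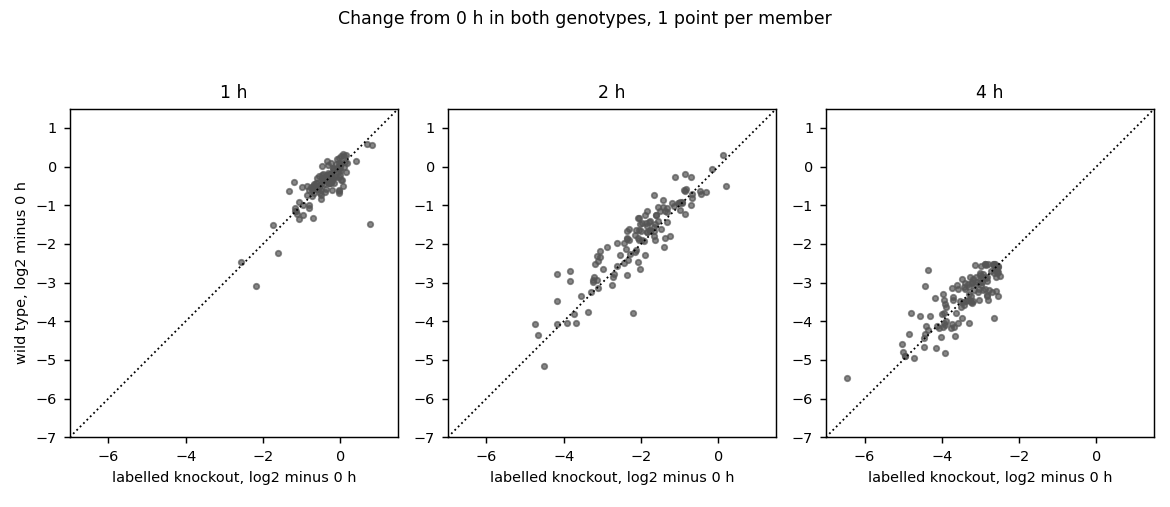
Log2 difference from 0 h in labelled knockout cells (x axis) and wild-type cells (y axis) at 1, 2 and 4 h, 1 point per gene, with the dotted line at equal values. At 2 h 80 of the 117 points lie left of the line (larger fall in labelled knockout cells) and at 4 h 60 do. At 1 h Arrdc3 is the point far below the line, above 0 in labelled knockout cells and below 0 in wild-type cells.

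Promoter windows of 300 bases were found for 91 of the 117 genes, and 18 motifs were looked for in them on both strands. The E-box CACGTG, the core bound by MYC, MAX, CLOCK and MITF family factors, was present in 18 windows (19.8%), against 10% of the 10136 windows of tested genes and 7.24% of all 27025. By timing it occurred in 0 of 2 early, 12 of 46 middle, 5 of 28 late and 1 of 15 split genes. The EGR site GCGGGGGCG was present in 9.89% (against 5.32% of tested genes), the ETS core AGGAAGT in 14.3% (9.30%), the forkhead site GTAAACA in 4.40% (2.58%), the GC box GGGCGG in 59.3% (61.5%) and the CCAAT box in 41.8% (38.3%). The interferon response letters GAAANNGAA were present in 1 window (1.10%, against 7.19%). The NF-kB forms GGACTTTCC and GGAATTTCC were present in 0, against 0.454% and 0.345%. The TATA box TATAAA was present in 13.2% (8.29%), the KLF site GGGTGTGG in 5.49% (3.77%), the AP-1 site TGACTCA in 3.30% (3.97%) and the YY1 site in 2.20% (3.19%). The CREB site TGACGTCA, the MEF2 site TATTTATA and the NRF1 site GCGCATGCG were each present in 1 window, against 3.06%, 0.967% and 3.67% of tested genes. The C/EBP site TTGCGCAA and the D-box TTATGTAA were present in 0 windows, against 0.257% and 0.562%. The GC content had a median of 62.0% in the set and 60.3% in tested genes. A match is a run of letters, and binding was not measured.

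To show what these matches look like, the E-box with 12 bases on either side is given for the 6 genes of largest fall that hold one and the forkhead site for the first 2, chosen after their values were seen. Capitals mark the motif, and the sequences are from RefSeq, GRCm38.p6, on the strand of the gene.
Mxd4, chr5:34187912-34187941, minus strand: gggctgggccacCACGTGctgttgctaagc
Pdxk, chr10:78465111-78465140, minus strand: gggatgtgaggcCACGTGatggagcacaga
Mnt, chr11:74830789-74830818, plus strand: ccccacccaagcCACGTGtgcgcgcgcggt
Add3, chr19:53140198-53140227, plus strand: gaaagattagcaCACGTGgctgatccgttt
Eef2k, chr7:120842788-120842817, plus strand: cccggggacggcCACGTGagcccgggcgtg
Cipc, chr12:86947314-86947343, plus strand: gccgagccgggcCACGTGactggcgaaagc
Sesn1, chr10:41810584-41810614, plus strand: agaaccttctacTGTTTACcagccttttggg
Ypel3, chr7:126776976-126777006, plus strand: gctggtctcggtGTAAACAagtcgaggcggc
The E-box windows come from 3 genes of the transcription group with middle timing, Mxd4, Mnt and Cipc, and from 3 late genes, Pdxk, Add3 and Eef2k. In Sesn1 and Ypel3 the forkhead letters lie 22 and 25 bases after the annotated start. The Sesn1 window shows TGTTTAC, the same site read on the other strand.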

How the data were processed

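The deposited table holds log2 values of 45101 probe sets on 8 arrays, which the authors made with RMA per the submitters' processing notes (version not given in the sources used here). RMA quantile normalization hides a change in total RNA, since it makes the arrays' distributions alike (column medians 3.14 to 3.21). Names came from the array's platform annotation. Of 34945 with 1 symbol and no control role, 34741 were found in the RefSeq table of GRCm38.p6, which changed 0 symbols.

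Genes with a second-highest array under 3.16, the median of the table, were left out of tests. The genotype test used R 4.3.3 and limma 3.58.1 (lmFit, eBayes; Benjamini-Hochberg over 12540 genes; threshold 0.05). The fit recovered 76 and 99 of 100 genes simulated with differences of 1 and 2 log2 units, with 3.31% of calls false. Array background was the highest level among 27 Bacillus subtilis control probe sets of that array, a choice made after the data were seen. Precision is limited by 1 array per genotype and time. The p-values set the mean genotype difference against how much it varied over the 4 times. They do not measure the spread between animals or cell preparations. A difference between the cell preparations of the genotypes cannot be told apart from one of genotype. The alternatives were cyclic loess, centring on 11 housekeeping genes, other probe set rules, filters, limits and variance settings, no time block, and leaving out arrays.

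The members, the gene lists, the timing classes and the tests were chosen with earlier results of these data known. Genes were named by rule: the 12 largest falls, the 5 largest shares of the fall at 1 h and 5 smallest at 2 h, the largest genotype differences (6 in each direction), members in the lists and genes next to the limit. Roles and other named genes were chosen after their values were seen.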

Additional observations from a re-analysis of the deposited data

Results flagged for a closer look

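Arrdc3, an arrestin-domain gene, moved in opposite directions in the first hour: its 1 h value was above the 0 h value by 0.76 log2 units in labelled knockout cells and differed from it by -1.48 in wild-type cells, each on a single array. The difference was not tested. At 4 h it was lower than at 0 h in both genotypes.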

How the results depend on the processing

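The number of genes meeting the rule was 117. It was 75 with centring on housekeeping genes, 53 with the mean of all probe sets (52 of them shared with the 117), 250 at a limit of -2 and 68 at a limit of -3. That mean takes in probe sets of low reading: 106 of the 147 other probe sets of the 117 genes were nearer to background at 0 h. It was 95 after cyclic loess and 88 without probe sets that can bind several transcripts, of which 94 and 85 were shared. The median of all genes at 4 h was -0.12, and -0.04 after loess and 0.27 after housekeeping centring, a construction that shifts every gene at once. All 117 genes still had a mean fall of 2 or more under both, a looser cut than the rule's. With housekeeping centring this follows from the rule, as the smallest mean fall was -2.56 and every gene shifts by the same amount. At the rule's own limit, 42 of the 117 genes were lost with housekeeping centring and 23 after loess. With housekeeping centring 29 genes were middle and 13 split, and with the mean of all probe sets 1 was early, 27 middle, 13 late and 12 split. In the genotype test the number of genes higher in labelled knockout cells, 3, was 7 after loess (5.61% of all genes), 10 with trend and robust settings (6.52%), 5 with a filter at the 75th percentile (7.84%), 1 with the mean of all probe sets (4.42%) and 5 without probe sets that can bind several transcripts (4.35%). Without the time block limma called 0 lower and 0 higher, and 1 gene had an unadjusted p under 0.05, since the fit then counts the time course as error. Leaving out arrays gave 9 to 23 lower and 2 to 6 higher. The count of lower genes was 9 when an array of 0 h was dropped, 21 for 1 h and 17 for 2 h. An array left out leaves its partner with no part in the genotype contrast, so both give the same count. Bex1, Pparg and Pde3b passed under every alternative that keeps the time block and could be fitted for them.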
